A study of Homo sapiens with 6 samples.

Results

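The genes described here are 42 human genes that mark or control epithelial and mesenchymal cell states, out of 20263 genes in the deposited table. They were chosen by name and matched by current gene symbol to the Ensembl identifiers of the table, and all 42 were found. By role they were 8 genes of epithelial cell adhesion, 9 regulators and effectors of the epithelial state, 6 transcription factors of the epithelial to mesenchymal transition (EMT), 11 mesenchymal markers and 8 genes of matrix adhesion and matrix turnover. RNA sequencing of total RNA was made from cells labelled LNCaP, an established hormone-dependent prostate cancer cell line. The 3 empty vector libraries (replicates 1 to 3) came from cells carrying the vector alone, and the 3 overexpression libraries (replicates 1 to 3) from cells carrying a vector for LINC01518, a long non-coding RNA. Beyond the vector, both groups were given the same tissue, line and cell type in the labels, and no time, dose or promoter was given. The series description names another long non-coding RNA, MEG3, as the insert. Group names here follow the sample labels, and the insert itself was not analysed here. Nothing in the labels ties the replicates of a group to separate cultures, so the p-values measure the spread between libraries only, and that spread may be technical.

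Epithelial cells are held together by adherens junctions built on cadherins, by desmosomes and by tight junctions. In EMT, transcription factors of the Snail, Twist and ZEB families repress such junction genes, E-cadherin (CDH1) first among them, while vimentin, N-cadherin and other mesenchymal genes are made. Prostate luminal cells are epithelial, and LNCaP is known as a line with luminal features.

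Total counts per library lay between 38161544 and 42553688, and the limit that a count of 0 allows was 0.0703 to 0.0794 CPM (TMM-scaled counts relative to library size), for counting error only. Of 12 markers of LNCaP and luminal prostate cells, 5 were at 0 counts in all 6 libraries: KLK3, KLK2, TMPRSS2, FOLH1 and TRPM8. HOXB13 held 257 to 345 counts per library, and the keratin genes KRT8 and KRT18 were abundant. Several defining markers of the labelled line were thus not detected at this depth in either group. Of the markers of other cell types, PTPRC and CD3E of immune cells, KDR of endothelium and FAP, PDGFRA and LUM of fibroblasts were at 0 counts in all 6 libraries. Counts of 1 to 20 were even numbers in 63.9% to 67.9% of cases per library, against 49.1% to 51.8% of counts above 200 and up to 400, so values of a few counts were treated as rough.

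Levels were compared between genes in TPM, a measure scaled by transcript length as well as depth. The most abundant of the 42 genes were S100A4, a calcium-binding protein gene of motile cells, with a mean of 807 TPM over the 6 libraries, and VIM, the intermediate filament of mesenchymal cells, with 740.2 TPM. JUP, which encodes plakoglobin of desmosomes and adherens junctions, followed with 576 TPM, and ITGB1, the beta subunit shared by many matrix receptors, with 509.6 TPM. The ranges of these 4 genes over libraries overlapped from neighbour to neighbour, whereas ITGB1 (487 to 535 TPM) stood apart from the next gene, ANXA1 (233 to 348 TPM).

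The cadherins were low. CDH1 lay between 0.611 and 0.982 TPM over the 6 libraries, the placental cadherin gene CDH3 between 0.644 and 2.29 TPM, and CDH2, which encodes N-cadherin, between 2.16 and 3.09 TPM. CDH11, a cadherin of mesenchymal cells, was at 0 counts in every library. The ratio of VIM to CDH1 in TPM ran from 619 to 1354 over libraries, and that of JUP to CDH1 from 647 to 911. The plaque genes of desmosomes were thus far above the transmembrane cadherin gene in each library: DSP, the desmoplakin that ties keratin filaments to desmosomes, averaged 65.7 TPM and PKP3, a plakophilin of the same plaque, 59.6 TPM. EPCAM, an epithelial cell adhesion molecule, and OCLN, the tight junction protein occludin, averaged 0.441 and 0.370 TPM, while TJP1, the tight junction scaffold ZO-1, averaged 10.4 TPM.

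Epithelial splicing was represented by ESRP2 with a mean of 36.1 TPM, since its paralogue ESRP1 was at 0 counts in all 6 libraries. ELF3, an epithelial ETS transcription factor, reached 75.4 TPM, the membrane serine protease gene ST14 (matriptase) 22.5 TPM and its inhibitor gene SPINT1 7.85 TPM. The other epithelial regulators were scarcely read: OVOL1 and OVOL2, zinc finger factors that hold the epithelial state, had 0 to 7 and 0 to 8 counts per library. GRHL2, a grainyhead factor, had 0 to 2 counts, as did RAB25, a small GTPase of epithelial vesicle traffic.

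All 6 EMT factors were read in every library. In TPM their order was SNAI1 (35.5), TWIST2 (28.6), ZEB1 (11.5), TWIST1 (7.02), SNAI2 (6.48) and ZEB2 (3.13). SNAI1 did not overlap TWIST2 over libraries and SNAI2 did not overlap ZEB2, while the ranges of ZEB1, TWIST1 and SNAI2 overlapped. Of the mesenchymal markers, PDGFRA, LUM and CDH11 were at 0 counts in all 6 libraries, and THY1 and SPARC had at most 14 and 5 counts. In all, 19 of the 42 genes averaged over 10 TPM, and 7 were at or below 3 counts in every library.

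**Figure D1:**
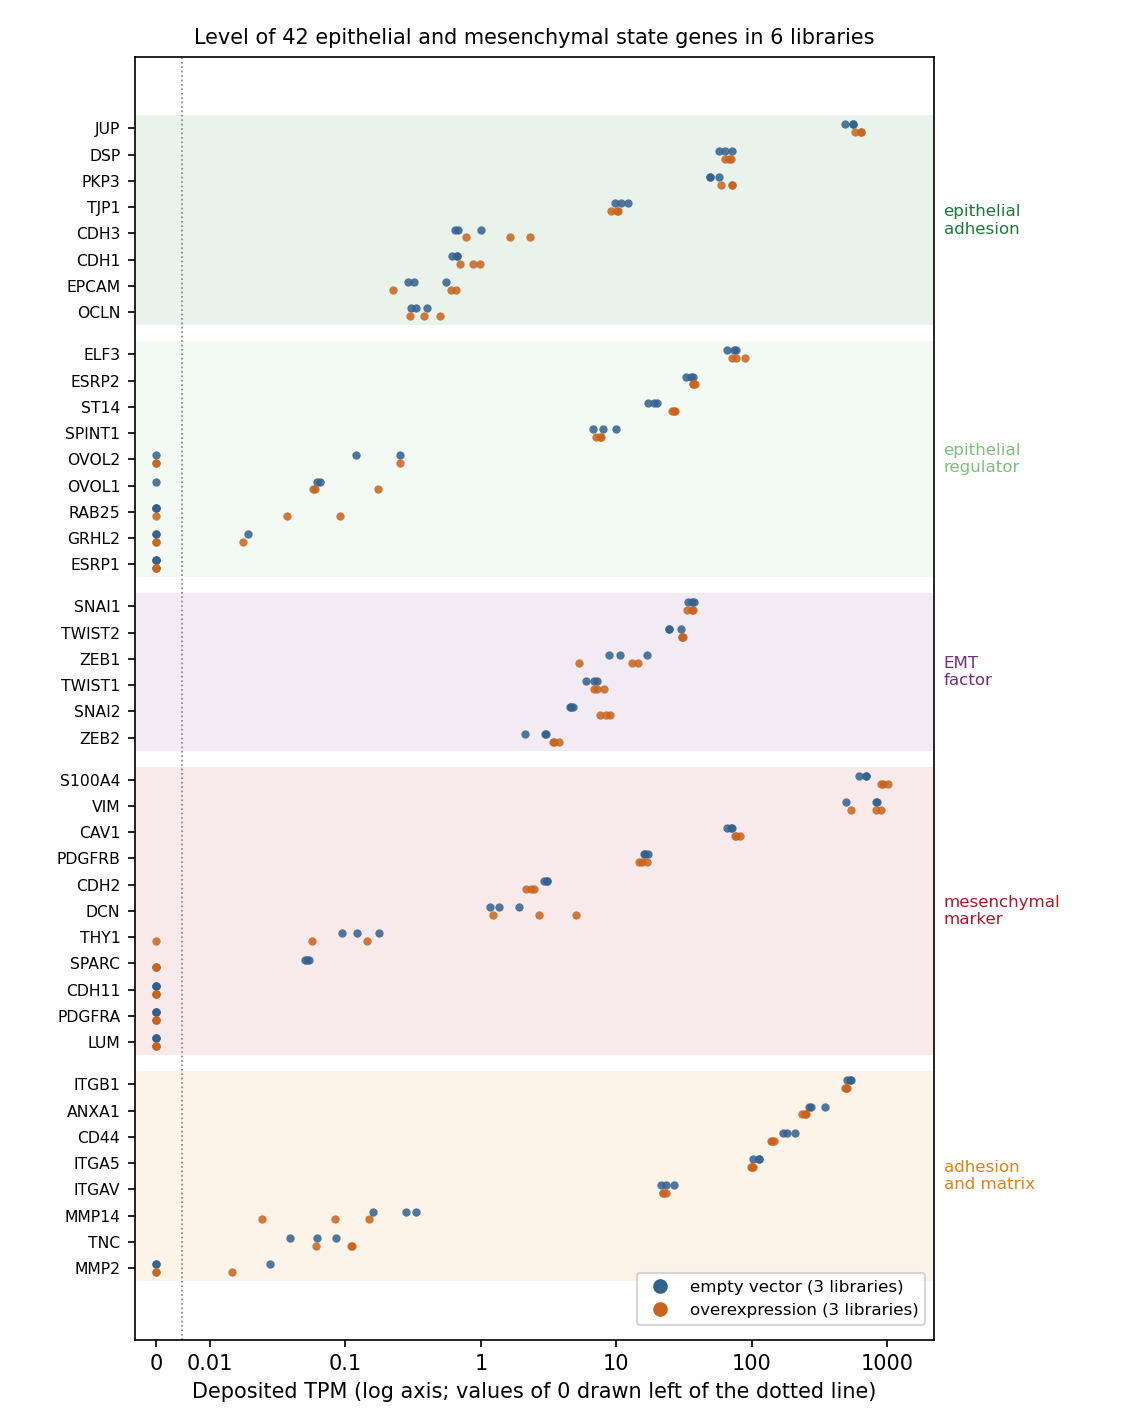
Deposited TPM of the 42 genes on a log axis, grouped by role, with 1 dot for each of the 3 empty vector (blue) and 3 overexpression (orange) libraries and values of 0 drawn left of the dotted line. JUP, DSP and PKP3 lie far to the right of CDH1, and S100A4 and VIM are the most abundant genes.

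Snail and ZEB factors bind the E-box CAGGTG, whose reverse complement is CACCTG, and the promoters of junction genes are among their known targets. RefSeq promoter windows on build GRCh38.p14, from 250 bases before to 50 after the start site (300 bases), were matched for 24 of the 42 genes. CDH1 was not among the genes with a window. Of these, 7 held at least 1 match to CAGGTG or CACCTG, which covers both strands: TJP1, OCLN, DSP, ELF3, RAB25, ZEB1 and S100A4. This was 29.2% of the windows, against 20.6% of all 35116 windows of the table. The 2 shares are not on a like basis. The 24 genes were read from 1 window each, whereas the 35116 windows were not limited to 1 per gene. By role the motif was held by 3 of 4 epithelial adhesion genes, 2 of 3 epithelial regulators, 1 of 3 EMT factors, 1 of 7 mesenchymal markers and 0 of 7 matrix genes. Only 3 of the 6 genes called below had a window (S100A4, CAV1 and PDGFRB), and only that of S100A4 held the motif. The stretches before the start site that hold the motif are shown for an epithelial vesicle gene, a tight junction gene, a desmosome gene and the called mesenchymal gene, without bases of their GENCODE 29 exons. They are written from 5′ to 3′ on the gene's strand with the E-box in capitals, for RAB25 at chr1:156060910-156061159 (plus strand), TJP1 at chr15:29969050-29969299 (minus), DSP at chr6:7541421-7541574 (plus) and S100A4 at chr1:153545886-153546056 (minus).
RAB25: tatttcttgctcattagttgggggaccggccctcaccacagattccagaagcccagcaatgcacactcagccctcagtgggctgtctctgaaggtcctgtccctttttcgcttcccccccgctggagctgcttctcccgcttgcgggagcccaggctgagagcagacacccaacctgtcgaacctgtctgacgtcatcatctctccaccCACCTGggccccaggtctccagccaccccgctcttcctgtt
TJP1: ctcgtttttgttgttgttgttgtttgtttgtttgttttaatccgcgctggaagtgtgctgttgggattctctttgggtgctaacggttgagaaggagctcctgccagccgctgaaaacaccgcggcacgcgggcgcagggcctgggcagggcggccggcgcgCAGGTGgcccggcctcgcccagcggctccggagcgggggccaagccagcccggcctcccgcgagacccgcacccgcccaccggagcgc
DSP: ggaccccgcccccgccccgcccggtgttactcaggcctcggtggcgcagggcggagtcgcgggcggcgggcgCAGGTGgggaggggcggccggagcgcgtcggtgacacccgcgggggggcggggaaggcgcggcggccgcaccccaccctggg
S100A4: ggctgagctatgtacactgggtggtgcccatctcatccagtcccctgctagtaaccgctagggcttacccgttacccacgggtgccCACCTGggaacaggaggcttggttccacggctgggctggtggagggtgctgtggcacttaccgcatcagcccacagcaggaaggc
The E-box began 41 bases before the start site in RAB25, 88 in TJP1, 178 in DSP and 164 in S100A4. DSP held another one 85 bases before its start, in the stretch left out, and RAB25 another one after its start site. The S100A4 stretch lies within the gene's span in GENCODE 29 (153543613 to 153550136, minus strand). That annotation thus also has a start site further upstream, and the stretch is before the RefSeq start site only. A match is a description of the letters only.

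The comparison of overexpression with empty vector asked how these genes changed when the vector for the non-coding RNA was given. Of the 42 genes, 31 had enough counts to be tested, 4 were at 0 in all 6 libraries and 7 had too few counts. By edgeR's quasi-likelihood test with Benjamini-Hochberg adjustment over all 13543 genes tested, 6 of the 31 rose (SNAI2, ST14, S100A4, PKP3, CAV1 and PDGFRB) and 0 fell. Over all genes tested, 5.6% were called, 3.57% higher and 2.03% lower. At an unadjusted p under 0.05 there were 8 of the 31 higher and 3 lower, where 23.6% of all genes tested had such a p in either direction. DESeq2 called 7 of the 31 higher and 0 lower, and 1302 of all 13543 genes tested (781 higher, 521 lower). It gave no adjusted p for EPCAM, TNC and MMP14. The median log2 fold change (overexpression minus empty vector) of the 31 was 0.17, against -0.0035 over all genes tested, and the median size was 0.25 against 0.13. The 3 libraries of each group did not overlap in CPM for 13 of the 31, which is 41.9%, against 31.4% of all genes tested. The 6 called genes came from 4 of the 5 roles, epithelial and mesenchymal ones together. In bulk libraries such as these, fewer cells of a type and less RNA per cell cannot be told apart.

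**Figure D2:**
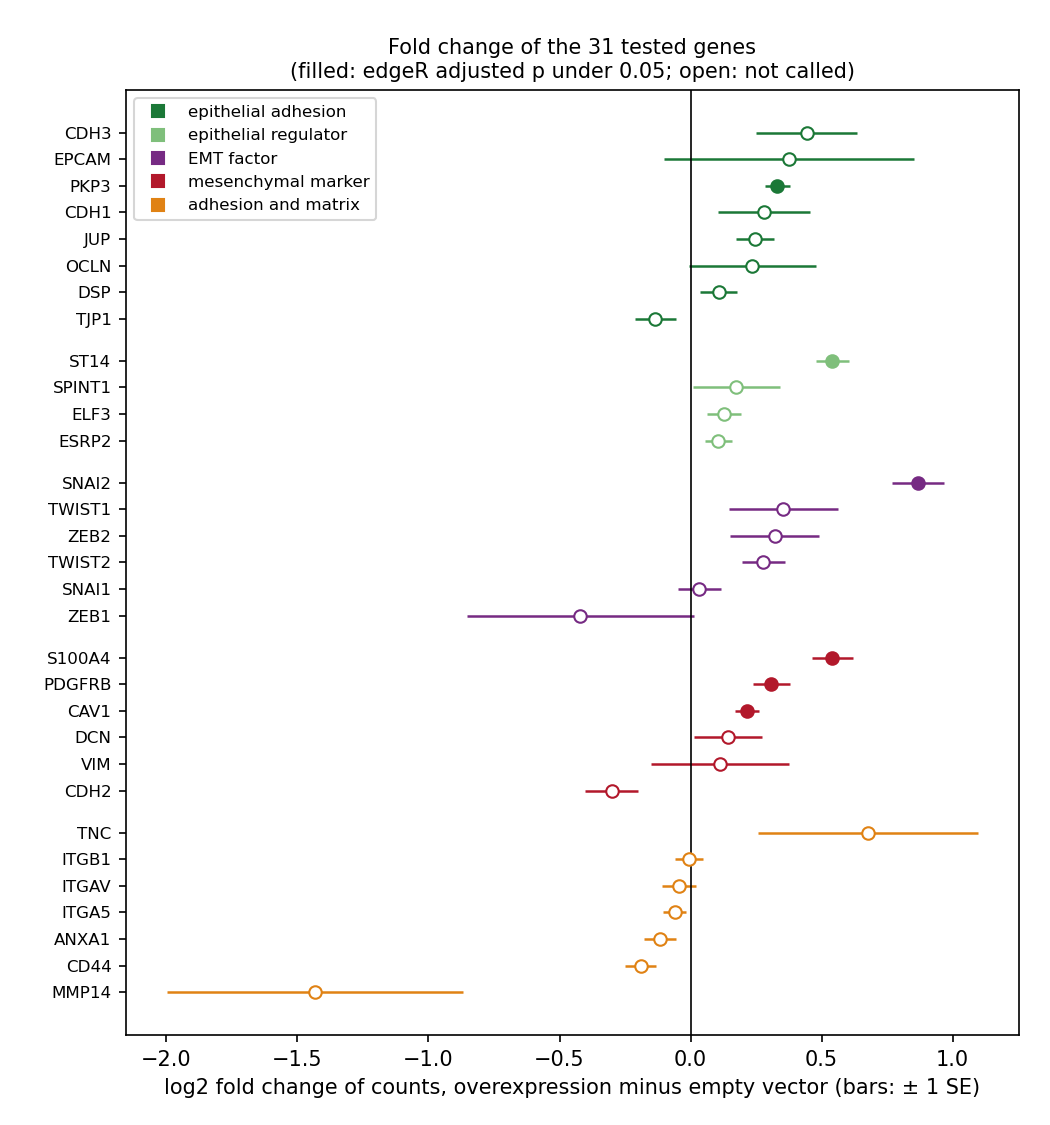
Log2 fold change from counts (horizontal axis, overexpression minus empty vector, bars ± 1 SE) of the 31 tested genes, coloured by role, with called genes filled. SNAI2 has the highest value of the called genes, 0.87, and no gene to the left of 0 was called.

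Of the 8 epithelial adhesion genes, all were tested, 1 rose and 7 had a positive log2 fold change, with a median of 0.26. PKP3 (chromosome 11, 392614 to 404908, GRCh38) held 63.9, 67.2 and 65.6 CPM in the empty vector libraries and 82.1, 83.2 and 82.1 CPM in the overexpression libraries. The groups were apart, and the mean went from 65.6 ± 1.68 to 82.5 ± 0.620 CPM (SD, n = 3 each). The log2 fold change was 0.33 (SE 0.0466, edgeR adjusted p = 0.0113), and without overexpression replicate 3 the adjusted p was 0.0515.

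JUP held 882, 781 and 925 CPM with empty vector and 960.4, 1042 and 1067 CPM with overexpression. All 3 overexpression libraries lay above all 3 of the empty vector, but edgeR did not call it (log2 fold change 0.25, adjusted p = 0.0893), while DESeq2 did (adjusted p = 0.0286). CDH1 (chromosome 16, 68737225 to 68835548) had 1.61, 1.5 and 1.7 CPM with empty vector and 2.24, 1.88 and 1.72 CPM with overexpression. These values rest on 64 to 94 counts per library. The groups were apart by a narrow margin, and the difference of 0.28 on the log2 scale (SE 0.177, edgeR adjusted p = 0.380) did not pass. CDH3 was also apart, at 1.34 to 1.49 against 1.52 to 2.09 CPM (log2 fold change 0.44, edgeR adjusted p = 0.215). DSP (0.11), OCLN (0.24) and EPCAM (0.38) had positive log2 fold changes and TJP1 a negative one (-0.13), all with overlapping groups and edgeR adjusted p from 0.347 to 0.677. EPCAM rested on 9 to 23 counts per library.

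Of the 9 epithelial regulators, 4 were tested and 1 rose. ST14 (chromosome 11, 130159562 to 130210376) held 33.0, 35.0 and 31.4 CPM with empty vector and 47.0, 49.3 and 48.5 CPM with overexpression. The lowest overexpression library was well above the highest empty vector library, and the means were 33.1 ± 1.81 and 48.2 ± 1.14 CPM (SD, n = 3 each). The log2 fold change was 0.54 (SE 0.064, edgeR adjusted p = 0.00656), a 1.46-fold rise, and it was called with any 1 library left out. SPINT1, which encodes the inhibitor of this protease, held 6.98 to 8.31 CPM with empty vector and 6.48 to 10.1 CPM with overexpression. Its groups overlapped, and its log2 fold change of 0.17 did not pass (edgeR adjusted p = 0.570). ESRP2 lay at 61.4 to 65.8 CPM with empty vector and 67.8 to 70.5 CPM with overexpression, groups apart, with a log2 fold change of 0.11 (edgeR adjusted p = 0.259). ESRP2 shares 149 exon bases with NFATC3 on the other strand. ELF3 overlapped between groups, with a log2 fold change of 0.13 (edgeR adjusted p = 0.272). Together, 11 of the 12 tested epithelial genes had a positive log2 fold change, against 49.2% of all genes tested, and 2 passed. SPINT1, 1 of the 11, had a negative difference in TPM (-0.11). Of 40 other epithelial genes tested, described below, 23 had a positive and 17 a negative log2 fold change.

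Of the 6 EMT factors, all were tested and 1 rose. SNAI2 (chromosome 8, 48917604 to 48921740), which encodes the repressor Slug, held 4.69, 4.69 and 4.75 CPM with empty vector and 8.0, 8.56 and 9.21 CPM with overexpression. The empty vector libraries were nearly equal and every overexpression library was higher, with means of 4.71 ± 0.0354 and 8.59 ± 0.605 CPM (SD, n = 3 each). The log2 fold change was 0.87 (SE 0.0995, edgeR adjusted p = 0.00632), a 1.82-fold rise that was called under all 17 alternatives. SNAI1, which encodes the related repressor Snail, held 27.9, 30.4 and 32.4 CPM against 31.9, 28.6 and 32.3 CPM. The groups overlapped fully (log2 fold change 0.03, edgeR adjusted p = 0.844). The ratio of SNAI1 to SNAI2 in TPM was 7.07 to 8.13 with empty vector and 3.95 to 4.76 with overexpression.

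TWIST2, a basic helix-loop-helix factor, held 20.2, 17.1 and 17.8 CPM with empty vector and 22.1, 22.1 and 22.6 CPM with overexpression. The groups were apart, and the log2 fold change of 0.28 did not pass (edgeR adjusted p = 0.0921). Its relative TWIST1 (log2 fold change 0.35) and the zinc finger homeobox gene ZEB2 (0.32) overlapped between groups, with edgeR adjusted p of 0.344 and 0.297. ZEB1 held 24.5, 42.2 and 21.1 CPM with empty vector and 17.8, 14.7 and 33.2 CPM with overexpression. Each group had 1 library far above its other 2, replicate 2 of the empty vector and replicate 3 of overexpression. The difference was -0.42 on the log2 scale (SE 0.433, edgeR adjusted p = 0.613) and ran from -0.85 to -0.06 as each library was left out. Its SD of log2 CPM within groups was 0.572, against a median of 0.0986 over 2491 genes of like level.

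**Figure D3:**
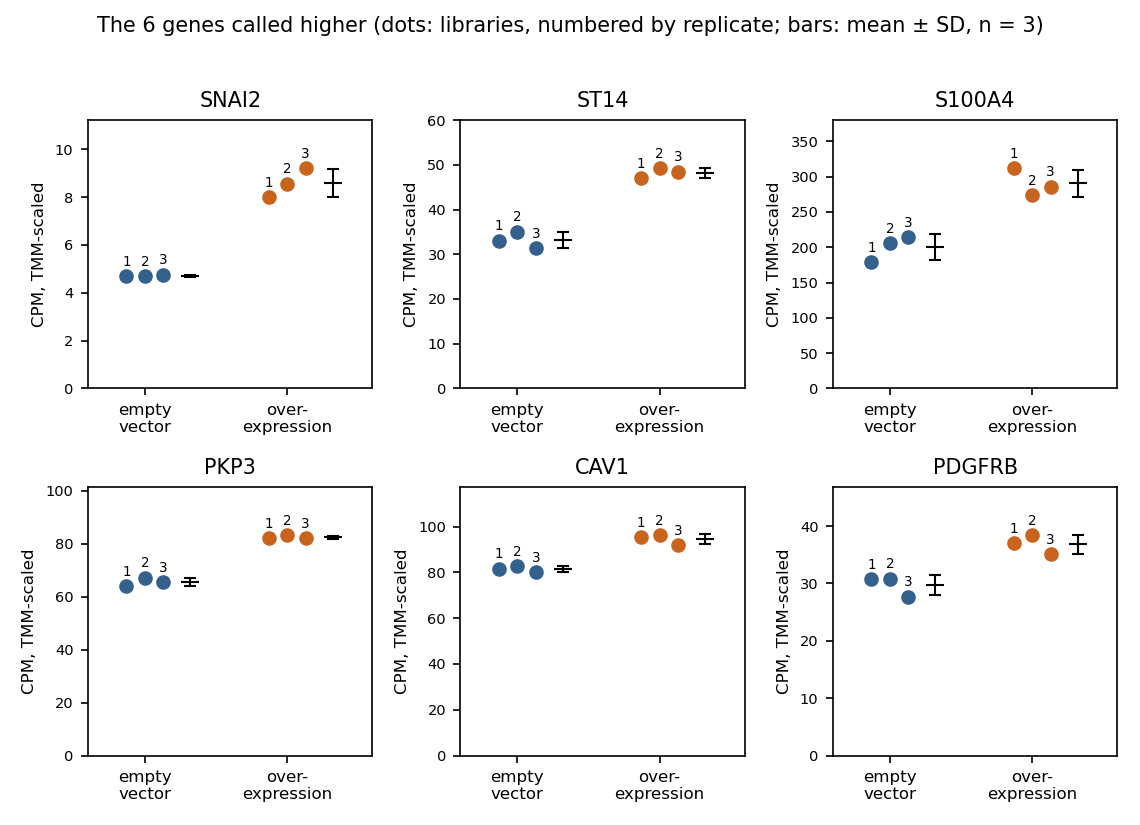
TMM-scaled CPM of the 6 called genes in each library (dots, numbered by replicate) with the mean and SD of 3 libraries per group (bars), each axis starting at 0. In every panel the 3 overexpression libraries lie above the 3 empty vector libraries, by the widest fold in SNAI2 (1.82).

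Of the 11 mesenchymal markers, 6 were tested and 3 rose. S100A4 (chromosome 1, 153543613 to 153550136), whose promoter stretch with an E-box is printed above, held 179, 206 and 214 CPM with empty vector and 312, 274 and 286 CPM with overexpression. The groups were apart, with means of 199.7 ± 18.4 and 290.5 ± 19.5 CPM (SD, n = 3 each). The log2 fold change was 0.54 (SE 0.0778, edgeR adjusted p = 0.0120), and it was called with any 1 library left out.

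CAV1 (chromosome 7, 116524785 to 116561184), which encodes the coat protein of caveolae, went from 81.5 ± 1.29 to 94.5 ± 2.31 CPM (SD, n = 3 each), with 80.1 to 82.7 CPM in the empty vector libraries and 91.9 to 96.2 CPM in the others. The groups were apart by a small step, 0.21 on the log2 scale (SE 0.0455, edgeR adjusted p = 0.0377). PDGFRB (chromosome 5, 150113837 to 150155872), a growth factor receptor of mural cells and fibroblasts, held 30.7, 30.8 and 27.7 CPM against 37.0, 38.4 and 35.1 CPM. Its groups were apart as well, by 0.31 on the log2 scale (SE 0.0708, edgeR adjusted p = 0.0471). Both calls were lost whichever library was left out, with adjusted p from 0.0736 to 0.124 for CAV1 and from 0.0796 to 0.141 for PDGFRB. In the deposited TPM, PDGFRB did not separate the groups: it held 15.9 to 17.0 TPM with empty vector and 14.6 to 16.9 TPM with overexpression, a difference of -0.06 in mean log2(TPM + 1).

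The classical pair of EMT markers did not pass. VIM (chromosome 10, 17228259 to 17237593) held 523, 827 and 865 CPM with empty vector and 605, 928 and 862 CPM with overexpression. Replicate 1 was the lowest library in both groups and the groups overlapped (log2 fold change 0.11, SE 0.264, edgeR adjusted p = 0.840). Its SD of log2 CPM within groups was 0.367, against a median of 0.0720 over 154 genes of like level. The sign of its fold change turned without empty vector replicate 1 (-0.09) and without overexpression replicate 2 (-0.01). CDH2 held 6.49, 6.28 and 6.5 CPM with empty vector and 4.88, 5.24 and 5.53 CPM with overexpression. Here every overexpression library was the lower, but the log2 fold change of -0.30 (SE 0.101) had an edgeR adjusted p of 0.127. The ratio of CDH2 to CDH1 in TPM was 4.33 to 5.05 with empty vector and 2.4 to 3.52 with overexpression.

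DCN, the matrix proteoglycan decorin, overlapped between groups in counts (log2 fold change 0.14, edgeR adjusted p = 0.547). SPARC, a matrix-binding glycoprotein gene that was not tested, had 4, 4 and 5 counts in the empty vector libraries and 0 in each overexpression library. THY1, a surface marker of fibroblasts, had 9, 14 and 7 counts against 0, 9 and 4. These are values of a few counts, the smaller of which lie near the limit that a count of 0 allows. The 9 fibroblast markers, of which PDGFRB and DCN are also counted here, summed to 112 to 122 CPM with empty vector and 154 to 159 CPM with overexpression. COL1A1 made up most of this sum and rose from 82.4 ± 3.64 to 114 ± 1.45 CPM (SD, n = 3 each, edgeR adjusted p = 0.00452), while FAP, PDGFRA and LUM were at 0 counts in all 6 libraries and COL1A2 and COL6A3 had at most 2. COL3A1 went from 18, 6 and 18 counts to 53, 32 and 52, groups apart, with a log2 fold change of 1.73 that edgeR did not call (adjusted p = 0.0562) and DESeq2 did (adjusted p = 0.0208). The part of the other fibroblast markers in the count rises of S100A4, CAV1 and PDGFRB was not tested.

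**Figure D4:**
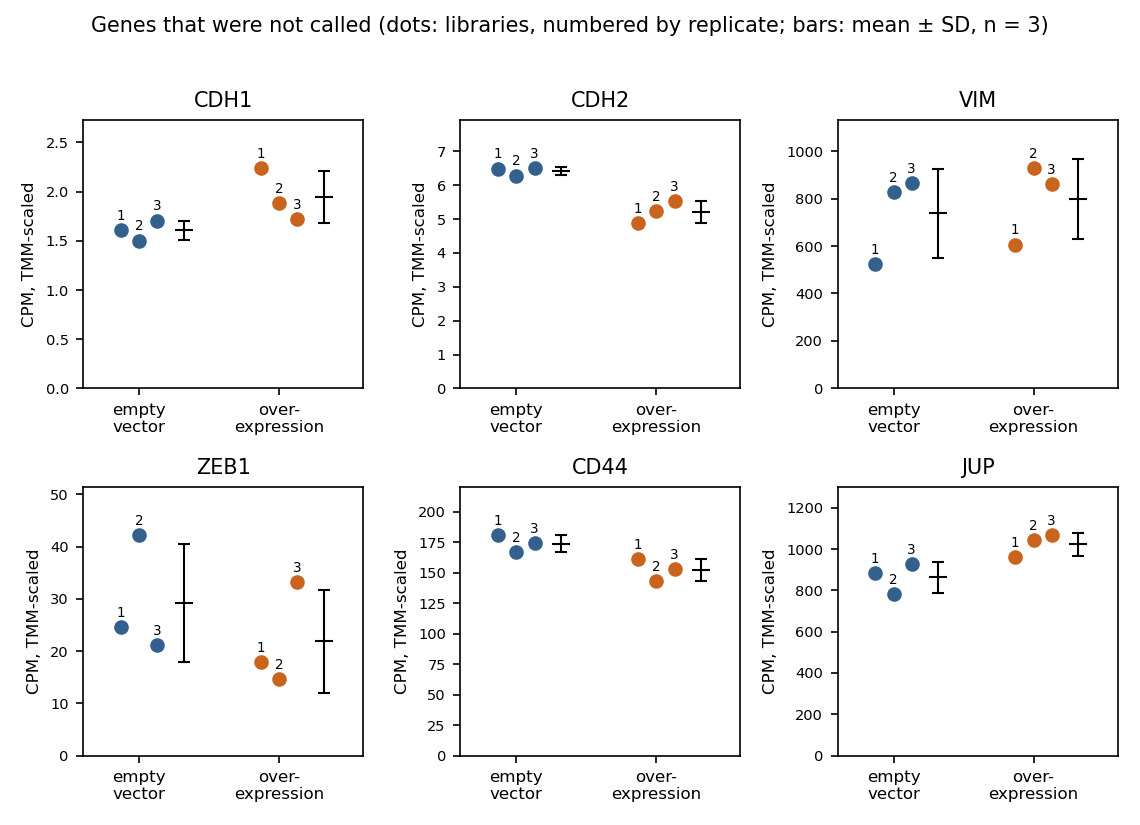
TMM-scaled CPM of 6 genes that were not called, in each library (dots, numbered by replicate) with the mean and SD of 3 libraries per group (bars), each axis starting at 0. VIM and ZEB1 vary more within the groups than between them, while CDH2 and CD44 lie lower and JUP and CDH1 higher in all 3 overexpression libraries.

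Of the 8 genes of matrix adhesion and turnover, 7 were tested and 0 passed in edgeR, with 2 of the 7 at an unadjusted p under 0.05, near the 23.6% of all genes tested. None passed in DESeq2, which gave no adjusted p for MMP14 and TNC. Their median log2 fold change was -0.06. CD44, the hyaluronan receptor, held 181, 167 and 174 CPM with empty vector and 161, 143 and 153 CPM with overexpression. The overexpression libraries were the lower ones, and the difference of -0.19 on the log2 scale (SE 0.0575) had an edgeR adjusted p of 0.0957. The integrin genes ITGA5, ITGB1 and ITGAV, which encode fibronectin and vitronectin receptor subunits, had log2 fold changes of -0.06, -0.01 and -0.04, with overlapping groups. ANXA1, a phospholipid-binding annexin gene, had -0.12 (edgeR adjusted p = 0.293). MMP14, a membrane-bound metalloprotease gene, had 25, 13 and 21 counts with empty vector and 2, 12 and 7 with overexpression. In CPM the replicate 2 libraries of both groups were nearly level, at 0.305 each, so the groups overlapped, and the log2 fold change of -1.43 (SE 0.565) had an edgeR adjusted p of 0.177. TNC, the matrix protein tenascin C, rested on 6 to 19 counts per library (log2 fold change 0.68, edgeR adjusted p = 0.372), and MMP2, a secreted metalloprotease gene, had at most 3.

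Other genes of the same programmes were counted from lists by role. Of 47 other epithelial genes, 40 were tested, 3 rose and 1 fell, with a median log2 fold change of 0.05 and with 23 positive and 17 negative values. The risers were CGN, the tight junction protein cingulin (9.76 ± 0.726 to 13.3 ± 0.487 CPM, SD, n = 3 each, edgeR adjusted p = 0.0319), the desmosomal cadherin gene DSC2 (12.1 ± 0.0806 to 15.5 ± 0.319 CPM, adjusted p = 0.0320) and EPS8L2, a regulator of actin (log2 fold change 0.23, adjusted p = 0.0310, but -0.07 in TPM). MAL2, a gene of apical membrane traffic, fell by 0.46 on the log2 scale (edgeR adjusted p = 0.0217).

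Of 20 other EMT regulators, 16 were tested, 3 rose and 0 fell, with a median log2 fold change of 0.17. At an unadjusted p under 0.05 there were 9 of the 16, against the 23.6% of all genes tested. SOX9, a transcription factor of progenitor and cartilage cells, went from 8.80 ± 0.36 to 12.9 ± 0.629 CPM (SD, n = 3 each, edgeR adjusted p = 0.0146). The T-box repressor gene TBX3 went from 59.4 ± 6.38 to 83.4 ± 3.21 CPM (SD, n = 3 each, edgeR adjusted p = 0.0172), and the forkhead gene FOXC1 had a log2 fold change of 0.27 (adjusted p = 0.0383).

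Of 41 other genes listed as mesenchymal, 31 were tested, 3 rose and 2 fell, with a median of -0.02. GAS1, a membrane protein of growth arrest, went from 11.6 ± 0.760 to 17.3 ± 0.454 CPM (SD, n = 3 each, edgeR adjusted p = 0.0113) and was the only called gene of the 3 lists that was called with any 1 library left out. TIMP3, an inhibitor of metalloproteases (log2 fold change 0.23), and EMP3, an epithelial membrane protein family gene (0.27), also rose. The 2 that fell were the integrin genes ITGA3 (-0.33) and ITGB4 (-0.31), subunits of laminin receptors found on epithelial cells (edgeR adjusted p = 0.0179 and 0.0379). They were counted in this list and not with the epithelial genes. The calls of EPS8L2, DSC2, FOXC1, TIMP3, EMP3 and ITGB4 were lost whichever library was left out, and those of CGN, MAL2, SOX9, TBX3 and ITGA3 without some of the libraries.

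The deposited TPM gave a further reading of the 42 genes. A limma fit of log2(TPM + 1) held 26 of the tested genes, of which 23 had the same sign as in the counts. The exceptions were PDGFRB (-0.06 against 0.31), SPINT1 (-0.11 against 0.17) and SNAI1 (-0.01 against 0.03). SNAI2 had a difference of 0.71 and was called in TPM, as were ST14 and S100A4, whereas PKP3 (limma adjusted p = 0.102) and CAV1 (0.198) were not. CD44 was lower by more in TPM (-0.38) than in counts (-0.19), without passing (limma adjusted p = 0.0588). DCN had a difference of 0.58 in TPM, with 1.24, 5.05 and 2.67 TPM in the overexpression libraries, against 0.14 in counts.

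**Figure D5:**
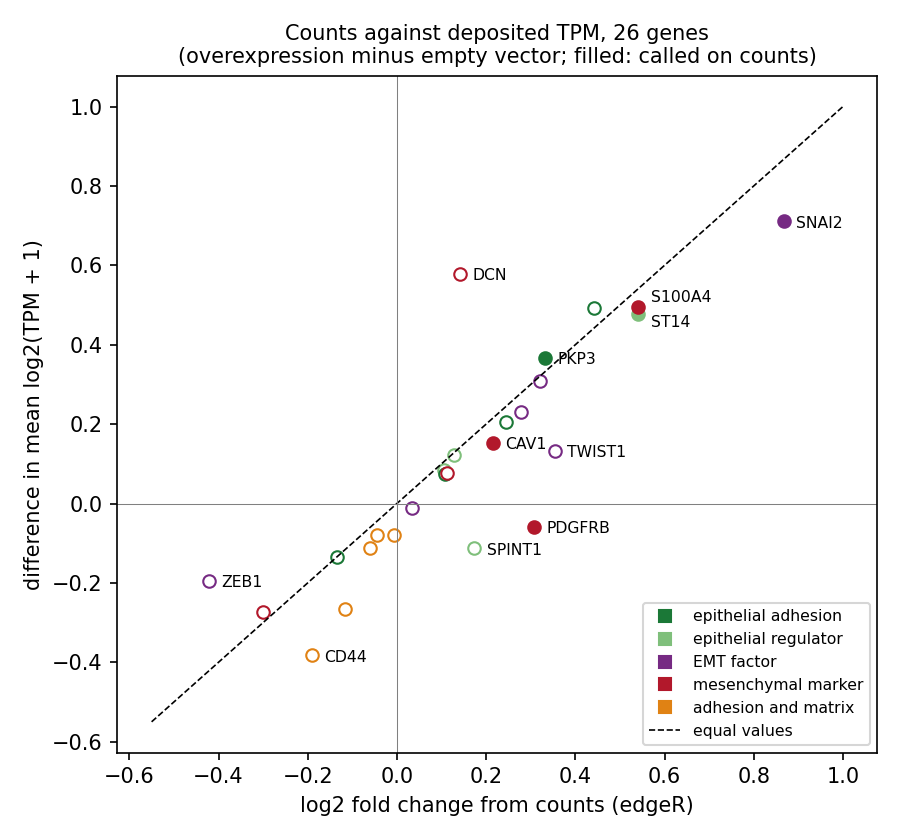
Log2 fold change from counts (horizontal axis) against the difference in mean log2(TPM + 1) (vertical axis), overexpression minus empty vector, for 26 genes coloured by role, with genes called on counts filled and a dashed line of equal values. SNAI2 is highest on both axes, and PDGFRB is the called gene that falls below 0 in TPM (-0.06).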

How the data were processed

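The submitters' processing notes name Trimmomatic 0.36, HISAT2, featureCounts, Subread 1.5.1 and DESeq, and the build GRCh38. The deposited counts are whole numbers per gene and library, with no normalization. The deposited TPM values were used for levels and alternative fits. How the TPM were made, which annotation was counted and whether strand was used is not given in the sources used here. Without strand, a gene's reads cannot be told from those of an antisense gene over the same bases: 19 of the 42 genes share exon bases with such a gene in GENCODE 29, CDH1, CDH3, ELF3, ZEB1, ZEB2 and VIM among them, and for 2 of them the partner is in the table (NFATC3 for ESRP2, and DELEC1 for TNC, the latter at 0 counts in all 6 libraries). Symbols matched 20148 of 20263 genes.

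Counts from all 6 libraries were fitted in R 4.3.3 with edgeR 4.0.16: filterByExpr (minimum count 10, minimum total 15), TMM scaling, and a robust quasi-likelihood F test with the group as its only term. P-values were adjusted by Benjamini-Hochberg over all 13543 genes tested and called under 0.05. The SE of a log2 fold change was taken as its absolute value over the root of the F statistic. Alternatives were other scalings, no filter or 50 counts in 3 libraries, DESeq2 1.42.0, limma 3.58.1 (voom on counts, trend on TPM with a pseudocount of 1 or 0.1), the replicate number as a block and leaving out each library. The 42 genes were all named; of each further list every called gene was named, up to 6 a direction. The genes, lists and tests were chosen with earlier results of these data known. Some markers of the labelled line are not reported here.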

Additional observations from a re-analysis of the deposited data

How the results depend on the processing

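The count of genes called, 759 (484 higher, 275 lower), stayed within 1.5 times under the other scalings, the count filters and voom. DESeq2 called 1302 (781 higher, 521 lower), and library size alone gave a split of 346 higher and 382 lower. Leaving out 1 library gave 193 to 458 (131 to 287 higher, 62 to 171 lower). The TPM fits called 225, 222 (pseudocount 0.1) and 138 (no filter), of which 101, 97 and 66 were higher and 124, 125 and 72 lower. Of the 42 genes, 6 were called, all higher. The TPM fits called 3, 3 and 2, and leaving out 1 library gave 3 to 4 (3 without overexpression replicate 3, when PKP3 was lost). None was called lower under any alternative run. With a replicate block, 232 genes were called (154 higher, 78 lower), and 3 of the 42 (SNAI2, ST14 and PKP3). The numbers did not pair the libraries by rule: deviations of same-numbered libraries correlated at 0.0367, 0.0547 and 0.0449, although each library correlated best with its own number, which is a hint from the data and not the design. Directions turned in the TPM fits for SPINT1 (-0.11, -0.12 and -0.11), SNAI1 (-0.0101, -0.0104 and -0.0101), PDGFRB (-0.0594, -0.0629 and -0.0594) and EPS8L2 (-0.0747, -0.0754 and -0.0747). As each library was left out, log2 fold changes ran through 0 for SNAI1 (-0.024 to 0.0875, lower without empty vector replicate 1), VIM (-0.0864 to 0.277, lower without empty vector replicate 1 or overexpression replicate 2), ITGB1 (-0.0387 to 0.0483, higher without empty vector replicate 3) and ITGAV (-0.0959 to 0.0147, higher without empty vector replicate 1). Among these only PDGFRB and EPS8L2 had been called, and the causes were not tested. CDH1 rested on 64 to 94 counts per library and EPCAM and OCLN on fewer, so small differences may have been missed. The smallest difference that could be detected was not tested.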
